A study of Saccharomyces cerevisiae with 12 samples.

Results

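The yeast cell wall genes CIS3, HSP150, PIR1, PIR3, CWP1, CWP2, PST1, YGP1, WSC2 and ECM33 were followed across 12 calling-card libraries of Saccharomyces cerevisiae. A calling card is an insertion of the Ty5 retrotransposon, steered by a transcription factor that is fused to Sir4. How much a region was used is given as its insertions in percent of all intergenic insertions of the library. A region belongs to a gene when the gene starts at its edge, by the strand letter of the systematic name. By that rule 8 of the 4532 intergenic regions served 9 of the 10 genes, since PIR1 and PIR3 share one and CWP2 has none. The genes were picked from these same counts set against the background insertions of each table. Their shares, folds and differences between libraries are therefore given as descriptions, with no test.

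The wall of budding yeast is a network of glucan and chitin that carries mannoproteins on its outside. Cis3, Hsp150, Pir1 and Pir3 are Pir proteins, which hold internal repeats and are bound directly to glucan. Cwp1, Cwp2, Pst1 and Ecm33 are made with a glycosylphosphatidylinositol (GPI) anchor, through which such proteins reach the plasma membrane or the wall. Wsc2 is a plasma membrane sensor of the cell wall integrity pathway, and Ygp1 is a secreted glycoprotein made when nutrients run low.

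Each library stood for 1 group and came from 1 clone, so no difference has a replicate check. Every strain lacked SIR4. Cst6, a basic leucine zipper factor, was mapped in cells with no other deletion listed, as were Gcr2 and Gcr1, activators of glycolytic genes. Tye7, a basic helix-loop-helix (bHLH) factor of glycolytic genes, was mapped in tye7D cells, and under the TEF1 promoter (TEF1p-Tye7) in cells with no TYE7 deletion listed, with GCR2 deleted (TEF1p-Tye7 gcr2D) or not. The bHLH domain of the mammalian factor NPAS2 was mapped with the leucine zipper (ZIP) of Cbf1 and without it, in cbf1D cells. Also in cbf1D cells were the Cbf1 bHLH, the Cbf1 bHLH-ZIP with the basic region of Tye7, the Cbf1 bHLH-ZIP and full-length Cbf1, a bHLH factor of sulfur genes and centromeres. The strain was BY4741 throughout, except BY4742 for the library with the Tye7 basic region, so the strain and the exchanged basic region cannot be told apart there. All clones spent 3 days on galactose, 2 days on rich medium and 3 days on medium without histidine and with 5-FOA.

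Libraries held between 2415 (NPAS2 bHLH) and 37782 (Cst6) intergenic insertions. The background set held 53808 for Cst6, Gcr2 and Gcr1 and 66271 for the other 9. Intervals are exact, at 95%, and cover counting error only. Folds are relative to the rest of a library. Over all regions tested, the median log2 fold over background was -1.68 in Cst6, -1.30 in Cbf1 and 0.97 in NPAS2 bHLH, the shallowest library. These log2 folds have 1 insertion added to each count, which lifts sparse regions in a shallow library. In NPAS2 bHLH even an empty region can have a positive log2 fold, so that median gives no typical enrichment. Entries identical in chromosome, position and reads to an entry of another library made up 1.68% (Cst6) to 12% (Cbf1 bHLH-ZIP) of a list, and 49.9% to 68.3% of them carried 1 read. Values without those entries are given for CIS3, PST1 and WSC2.

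A region was above background when its share was at least 2 times the background share with at least 5 insertions, and below it at 0.5 times or less with at least 5 insertions to be expected. Of the 96 values of 8 regions in 12 libraries, 17 were above, 14 below and 65 neither. CIS3 was above in 6 libraries, PST1 in 5 and WSC2 in 4, while PIR1 with PIR3 and YGP1 were above in 1 each. HSP150, CWP1 and ECM33 were above in none of the 12 and below in 4, 5 and 1 of them. No call below was possible where under 5 insertions were expected, as for HSP150 and ECM33 in the NPAS2 libraries. For ECM33 this also held in TEF1p-Tye7 gcr2D, TEF1p-Tye7, Cbf1 bHLH-ZIP and the library with the Tye7 basic region.

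**Figure D1:**
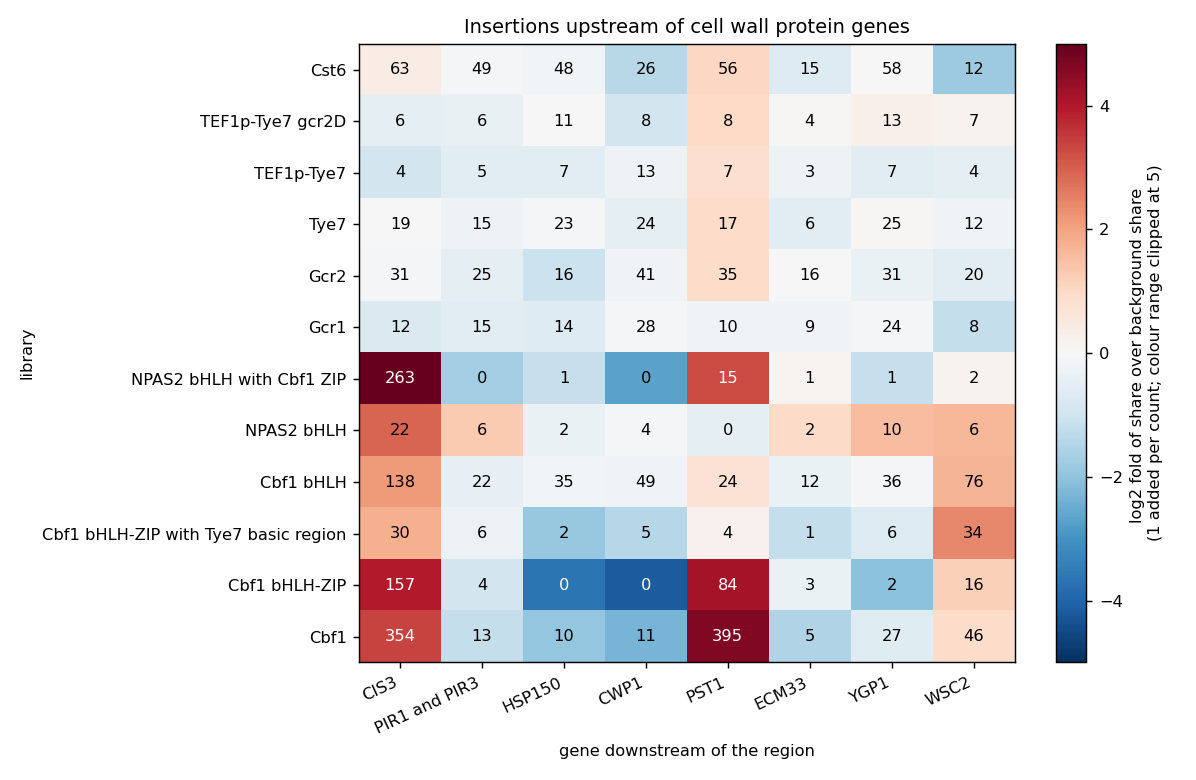
Insertions in the region upstream of each gene (number in the cell) in each library, coloured by the log2 fold of its share over the background share, with 1 insertion added to each count and colours clipped at 5. The red cells of CIS3 lie in the NPAS2 and Cbf1 rows, those of PST1 are deepest in Cbf1 and Cbf1 bHLH-ZIP, and HSP150 and CWP1 have 0 insertions in Cbf1 bHLH-ZIP.

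Over all tested regions, the share called above background was 8.39% in Cst6, 6.61% in TEF1p-Tye7 gcr2D, 2.69% in TEF1p-Tye7, 4.15% in Tye7, 4.29% in Gcr2 and 4.62% in Gcr1. It was 3.07% in NPAS2 bHLH with Cbf1 ZIP, 3.17% in NPAS2 bHLH, 8.03% in Cbf1 bHLH, 5.41% with the Tye7 basic region, 5.96% in Cbf1 bHLH-ZIP and 8.51% in Cbf1. In that order of the 12 libraries, 1, 1, 0, 0, 0, 0, 2, 4, 2, 2, 3 and 2 of the 8 member regions were above. The rule used this contrast, so nothing is read from the counts. Counting only insertions with at least 5 reads left 1 of the 4 regions above background in NPAS2 bHLH. The share called below was 69.6% in Cst6, 1.65% in TEF1p-Tye7 gcr2D, 4.55% in TEF1p-Tye7, 6.14% in Tye7, 31.7% in Gcr2 and 24.3% in Gcr1. It was 0.654% in NPAS2 bHLH with Cbf1 ZIP, 0% in NPAS2 bHLH, 7.9% in Cbf1 bHLH, 6.74% with the Tye7 basic region, 10.5% in Cbf1 bHLH-ZIP and 49.2% in Cbf1. In the same order 2, 0, 0, 0, 1, 1, 1, 0, 0, 2, 3 and 4 member regions were below. In shallow libraries such as NPAS2 bHLH few insertions are expected per region, which limits the calls below that are possible.

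CIS3 encodes a Pir protein of the wall. Its region, chr10:122944-123832 in the coordinates of the files, spans 889 bp and lies upstream of CIS3 only, with the 3′ end of FAR1, a mating cell-cycle inhibitor, on its other side. It held 263 insertions in NPAS2 bHLH with Cbf1 ZIP, 22 in NPAS2 bHLH, 138 in Cbf1 bHLH, 30 with the Tye7 basic region, 157 in Cbf1 bHLH-ZIP and 354 in Cbf1, against 82 in their background. It held 63 in Cst6, 31 in Gcr2 and 12 in Gcr1, against 69 in their background, and 6 in TEF1p-Tye7 gcr2D, 4 in TEF1p-Tye7 and 19 in Tye7, against 82. The 6 libraries of Cbf1 or NPAS2 constructs, of which one carries the basic region of Tye7, were thus all above background, and the 6 others were not.

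In NPAS2 bHLH with Cbf1 ZIP the CIS3 region took 9.2% of the intergenic insertions (8.16 to 10.3), which was 74.3 times the background share (57.8 to 96.5) and second in rank by insertions among all 4532 regions. In Cbf1 bHLH-ZIP it took 1.96%, 15.8 times background (12 to 20.9), and in Cbf1 1.30%, 10.5 times background (8.27 to 13.6). In NPAS2 bHLH it took 0.911% (0.572 to 1.38) and was the fullest region of the library, at 7.36 times background (4.38 to 11.9). Zipper-free Cbf1 bHLH placed it at rank 3, with 0.537% and 4.34 times background (3.28 to 5.78). The library with the Tye7 basic region gave 0.415% and 3.35 times background (2.13 to 5.15). In the remaining libraries the share was 0.167% in Cst6, 0.0790% in TEF1p-Tye7 gcr2D, 0.0526% in TEF1p-Tye7, 0.119% in Tye7, 0.122% in Gcr2 and 0.0720% in Gcr1, and the interval of each ratio to background included equality. Without the entries shared with other libraries, the ratio was 76.0 in NPAS2 bHLH with Cbf1 ZIP, 5.27 in NPAS2 bHLH, 4.14 in Cbf1 bHLH, 3.27 with the Tye7 basic region, 14.5 in Cbf1 bHLH-ZIP and 10.2 in Cbf1. With positions within 5 bp counted once in the library, which the background counts do not allow for, the log2 fold was 3.89 in NPAS2 bHLH with Cbf1 ZIP, -0.10 in Cbf1 bHLH, 1.90 in Cbf1 bHLH-ZIP and 1.20 in Cbf1, against 6.20, 2.11, 3.97 and 3.38 without merging.

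**Figure D2:**
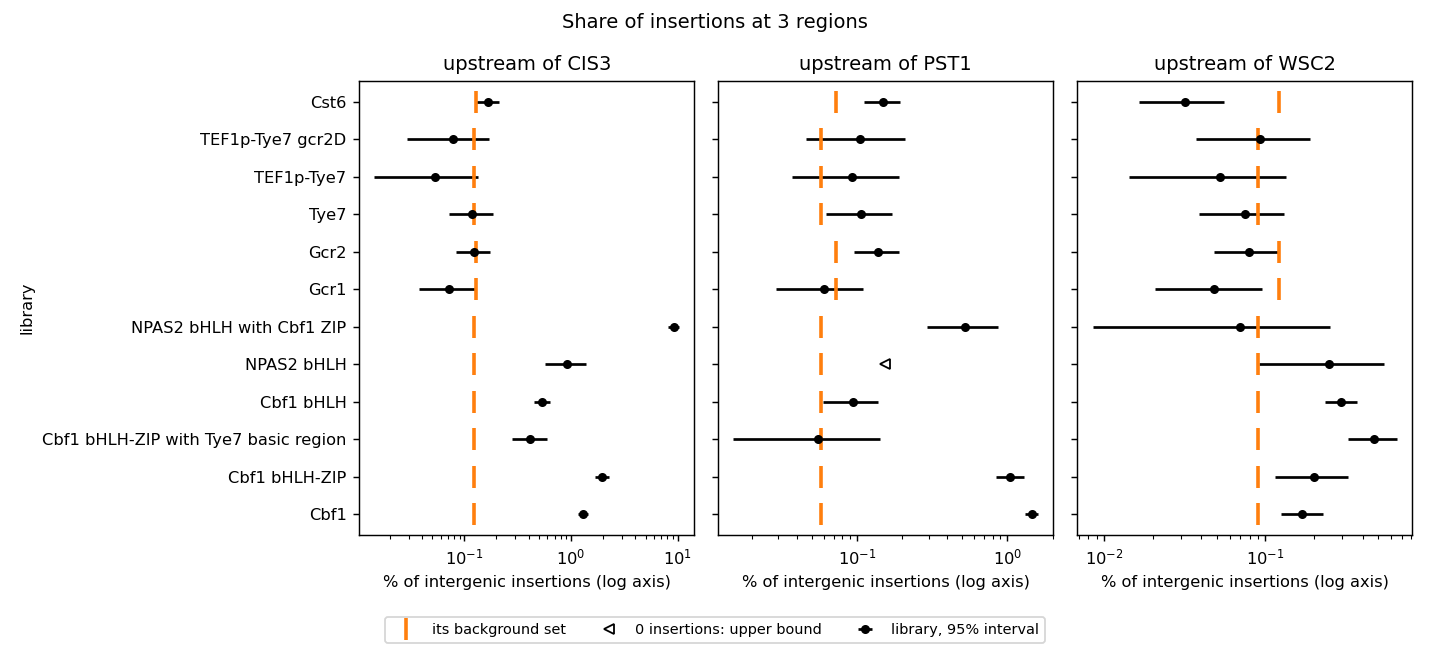
Share of intergenic insertions (%, log axis) upstream of CIS3, PST1 and WSC2 in each library, with exact 95% intervals; orange marks give the share of the library's background set and the open triangle the upper bound for a library at 0. CIS3 reaches 9.2% in NPAS2 bHLH with Cbf1 ZIP, PST1 1.46% in Cbf1, and WSC2 is highest, at 0.470%, with the Tye7 basic region.

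PST1 encodes a GPI protein, the paralog of Ecm33, that is made in larger amounts when the wall is damaged. Its region, chr4:562326-563526, is divergent and also lies upstream of CDC34, a ubiquitin-conjugating enzyme of the cell cycle, so the counts cannot be assigned to either gene. It held 395 insertions in Cbf1, 84 in Cbf1 bHLH-ZIP, 4 in the library with the Tye7 basic region, 24 in Cbf1 bHLH, 0 in NPAS2 bHLH and 15 in NPAS2 bHLH with Cbf1 ZIP, against 38 in the background. It held 56 in Cst6, 35 in Gcr2 and 10 in Gcr1, against 39 in the background, and 8 in TEF1p-Tye7 gcr2D, 7 in TEF1p-Tye7 and 17 in Tye7, against 38. The 3 libraries far above background all carried the Cbf1 zipper, and the library with the Tye7 basic region, which also carried it, was not among them.

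The PST1 region took 1.46% of Cbf1 insertions, 25.4 times the background share (18.2 to 36.4). It took 1.05% in Cbf1 bHLH-ZIP, 18.2 times background (12.3 to 27.5), and 0.525% in NPAS2 bHLH with Cbf1 ZIP, 9.15 times background (4.68 to 17.0). The last value was 5.35 from 8 insertions without shared entries. Cst6, at 2.04 times background (1.33 to 3.16), lay just inside the threshold. Without shared entries Cst6 gave 1.97 and TEF1p-Tye7 gcr2D 1.44, neither of them called. Gcr2 at 2.02 was then called, and Tye7 at 1.96 was called only because 1 insertion was added to each count. With all entries TEF1p-Tye7 gcr2D, at 1.84 times (0.741 to 4.0) from 8 insertions, passed the threshold only because 1 insertion was added to each count. With positions within 5 bp counted once, the log2 fold in Cbf1 was 2.03, against 4.63 without merging, and that in Cst6 was 0.74, short of the threshold. Just outside lay Gcr2 at 1.90 and Tye7 at 1.85. Cbf1 bHLH stood at 1.63 (0.935 to 2.79) and the Tye7 basic region at 0.964 (0.250 to 2.68). The 0 insertions of NPAS2 bHLH allow a share of up to 0.153%, above the background share, so depth did not permit a comparison there.

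WSC2 encodes a sensor that signals wall stress to the Pkc1 kinase pathway. Its region, chr14:106695-107687, is divergent and shared with POP3, a subunit of nuclear ribonuclease P. It held 34 insertions with the Tye7 basic region, 76 in Cbf1 bHLH, 16 in Cbf1 bHLH-ZIP, 46 in Cbf1, 6 in NPAS2 bHLH and 2 in NPAS2 bHLH with Cbf1 ZIP, against 60 in the background. It held 12 in Cst6, 20 in Gcr2 and 8 in Gcr1, against 65 in the background, and 7 in TEF1p-Tye7 gcr2D, 4 in TEF1p-Tye7 and 12 in Tye7, against 60. By share of insertions, the order of the Cbf1 forms was the reverse of that at PST1, with the full-length factor lowest.

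The WSC2 share was 0.470% with the Tye7 basic region, 5.19 times background (3.30 to 8.04), and 0.296% in Cbf1 bHLH, 3.27 times (2.30 to 4.66). It was 0.199% in Cbf1 bHLH-ZIP, 2.20 times (1.18 to 3.87), and 0.169% in Cbf1, 1.87 times (1.25 to 2.80), just under the threshold. NPAS2 bHLH gave 2.74 times background from 6 insertions, with an interval from 0.969 to 6.33. Neighbouring values in this order had overlapping intervals. Without shared entries the ratio was 2.88 in NPAS2 bHLH, 3.18 in Cbf1 bHLH, 4.81 with the Tye7 basic region, 2.04 in Cbf1 bHLH-ZIP and 1.90 in Cbf1. Cst6 and Gcr1 were below background, at 0.263 times (0.129 to 0.491) and 0.398 times (0.165 to 0.831), in libraries where 69.6% and 24.3% of all tested regions were below. With positions within 5 bp merged, the log2 fold was -0.40 in Cst6, -0.08 in Gcr1 and 0.73 in Cbf1 bHLH, all short of the threshold. Merging gave 1.80 in Cbf1 bHLH-ZIP, above Cbf1 bHLH, so the order of the Cbf1 forms depended on this setting.

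The place of the insertions inside a region was not used in choosing the genes. Upstream of CIS3, the median distance from the start of the gene was 479 bp in NPAS2 bHLH with Cbf1 ZIP, 495.5 bp in NPAS2 bHLH, 495.5 bp in Cbf1 bHLH, 499 bp with the Tye7 basic region, 505 bp in Cbf1 bHLH-ZIP and 506.5 bp in Cbf1. It was 674 bp in Cst6, 341 bp in Tye7 and 325 bp in Gcr2, the others having under 15 insertions each. The medians of the 6 libraries above background thus lay close together, and those of the others on either side of them.

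The 100 bp of the CIS3 region fullest in Cbf1, from 467 to 566 bp before the gene, hold 11.2% of its length. They took 48.7% of the region's insertions in NPAS2 bHLH with Cbf1 ZIP (42.5 to 54.9), 59.1% in NPAS2 bHLH (36.4 to 79.3), 57.2% in Cbf1 bHLH (48.5 to 65.6), 56.7% with the Tye7 basic region (37.4 to 74.5), 79.6% in Cbf1 bHLH-ZIP (72.5 to 85.6) and 70.9% in Cbf1 (65.9 to 75.6). They took 19.0% in Cst6 (10.2 to 30.9), 26.3% in Tye7 (9.15 to 51.2) and 29.0% in Gcr2 (14.2 to 48.0). The window was chosen on Cbf1, so its value there is high by choice. In the other 5 libraries above background the share exceeded that of Cst6 with no overlap of intervals. The wider intervals of Tye7 and Gcr2 overlapped those of NPAS2 bHLH with Cbf1 ZIP, NPAS2 bHLH and the Tye7 basic region, and that of Tye7 also overlapped that of Cbf1 bHLH. In NPAS2 bHLH with Cbf1 ZIP the insertions spread further toward the gene than in Cbf1, with a lower quartile at 331.5 bp, against 479.25 bp in Cbf1. Distances and window shares were not recomputed without entries shared between libraries. Leaving those out kept 15 of 22 CIS3 insertions in NPAS2 bHLH and 126 of 157 in Cbf1 bHLH-ZIP. Whether shared entries add to the likeness of position was not tested.

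The insertions were spread over many positions. Upstream of CIS3, NPAS2 bHLH with Cbf1 ZIP used 193 positions for its 263 insertions, Cbf1 bHLH-ZIP 86 for 157 and Cbf1 145 for 354. Upstream of PST1, Cbf1 used 214 positions for 395 insertions. Many positions came back in 2 or more runs: 73 of the 145 and 39 of the 86 at CIS3, and 87 of the 214 at PST1. Over the whole list, 26.5% of Cbf1 entries lay at a position listed before, against 0.150% in NPAS2 bHLH. The intervals count each entry separately.

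**Figure D3:**
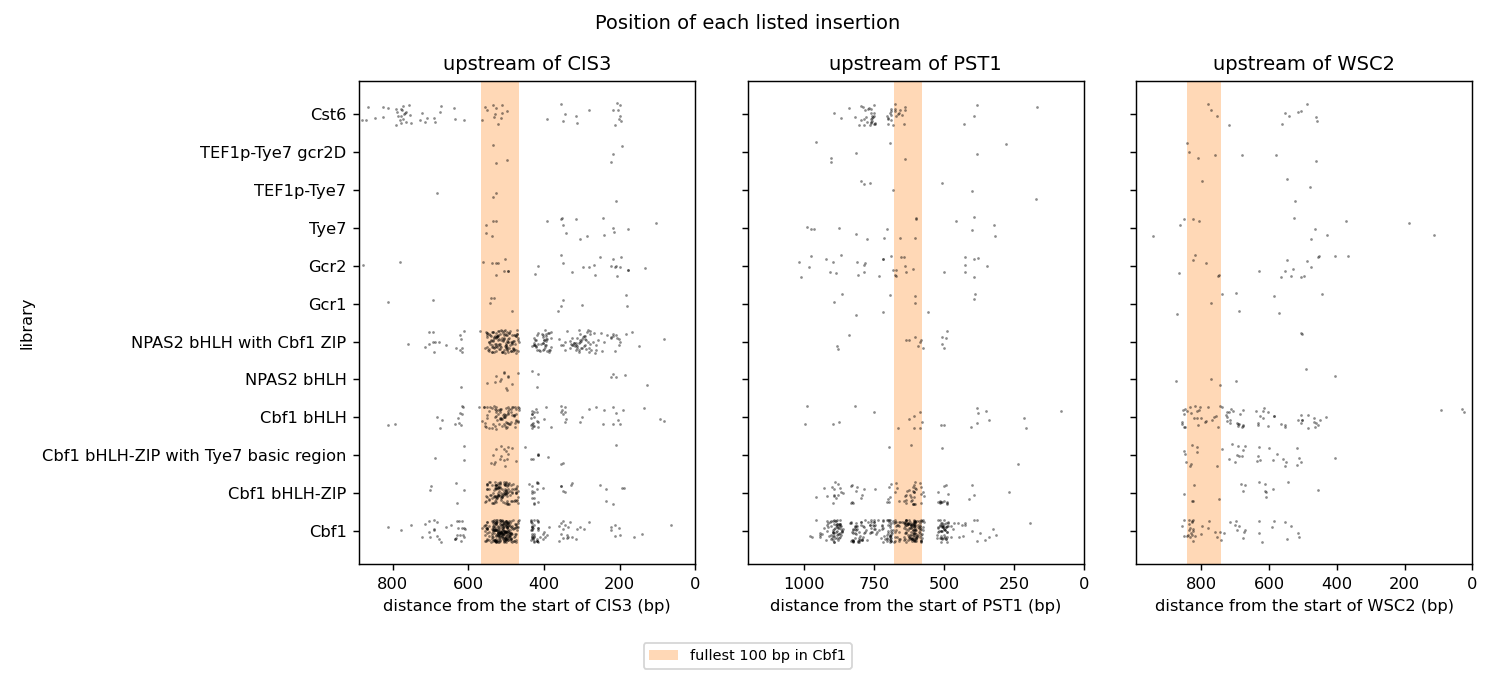
Distance (bp) of each listed insertion from the start of CIS3, PST1 or WSC2, by library, with vertical scatter for legibility; the shaded band is the 100 bp fullest in Cbf1. The band holds most CIS3 insertions of the Cbf1 forms and NPAS2 bHLH, whereas Cst6 insertions upstream of CIS3 and PST1 gather farther out.

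Upstream of PST1, the 100 bp fullest in Cbf1 lay 578 to 677 bp before the gene. They took 40.0% of the region's insertions in NPAS2 bHLH with Cbf1 ZIP, 29.2% in Cbf1 bHLH, 38.1% in Cbf1 bHLH-ZIP and 35.7% in Cbf1. They took 19.6% in Cst6 (10.2 to 32.4), 23.5% in Tye7 and 22.9% in Gcr2. Cst6 had its own fullest window at 672 to 771 bp, with 57.1% of its insertions there. That window was chosen on Cst6, so its share is high by choice, and its first bases overlap the window chosen on Cbf1, which holds 8.33% of the region's length.

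Upstream of WSC2, the median distance from the gene was 692.5 bp in Cbf1 bHLH, 678 bp with the Tye7 basic region, 651.5 bp in Cbf1 bHLH-ZIP and 768 bp in Cbf1. The region is 993 bp long, so these insertions lay nearer POP3 than WSC2. Full-length Cbf1 placed 52.2% of them (36.9 to 67.1) at 743 to 842 bp, and the same window held 23.7% in Cbf1 bHLH (14.7 to 34.8), 17.6% with the Tye7 basic region (6.76 to 34.5) and 25% in Cbf1 bHLH-ZIP (7.27 to 52.4). That window is the 100 bp fullest in Cbf1, so its share there is high by choice, and no shift of Cbf1 is read from it.

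Most insertion lists fall into several blocks, each sorted by chromosome. These blocks, or runs, have no name in the labels and are not replicates of a condition. The CIS3 share was 0.412% and 0.419% in the 2 runs with the Tye7 basic region, 0.482% to 0.726% in the 3 runs of Cbf1 bHLH, 1.48% and 2.63% in the 2 runs of Cbf1 bHLH-ZIP and 1.16% to 1.79% in the 4 runs of Cbf1. No run of the 6 libraries of other factors passed 0.270%, the highest of Tye7. The PST1 share was 0.910% and 1.24% in Cbf1 bHLH-ZIP and 1.23% to 1.66% in Cbf1, and at most 0.193% in any run of the other libraries with several runs, reached in TEF1p-Tye7 gcr2D. At WSC2 the runs of Cbf1 bHLH gave 0.230%, 0.363% and 0.762%, those with the Tye7 basic region 0.448% and 0.489%, and those of Cbf1 0.161% to 0.176%.

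Some calls rested on 1 run. PST1 was at a log2 fold of 0.92 in Cst6 without run 3 and 0.19 in TEF1p-Tye7 gcr2D without run 2, and WSC2 at -0.89 in Gcr1 without run 4 and 0.72 in Cbf1 bHLH-ZIP without run 1, all short of the threshold. WSC2 in Cbf1 bHLH was at 2.64 without run 3, against 1.70 with it. PIR1 with PIR3 in Cbf1 was at -2.58 without run 1, -0.87 without run 2 and -0.94 without run 3, against -1.19 with all runs.

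**Figure D4:**
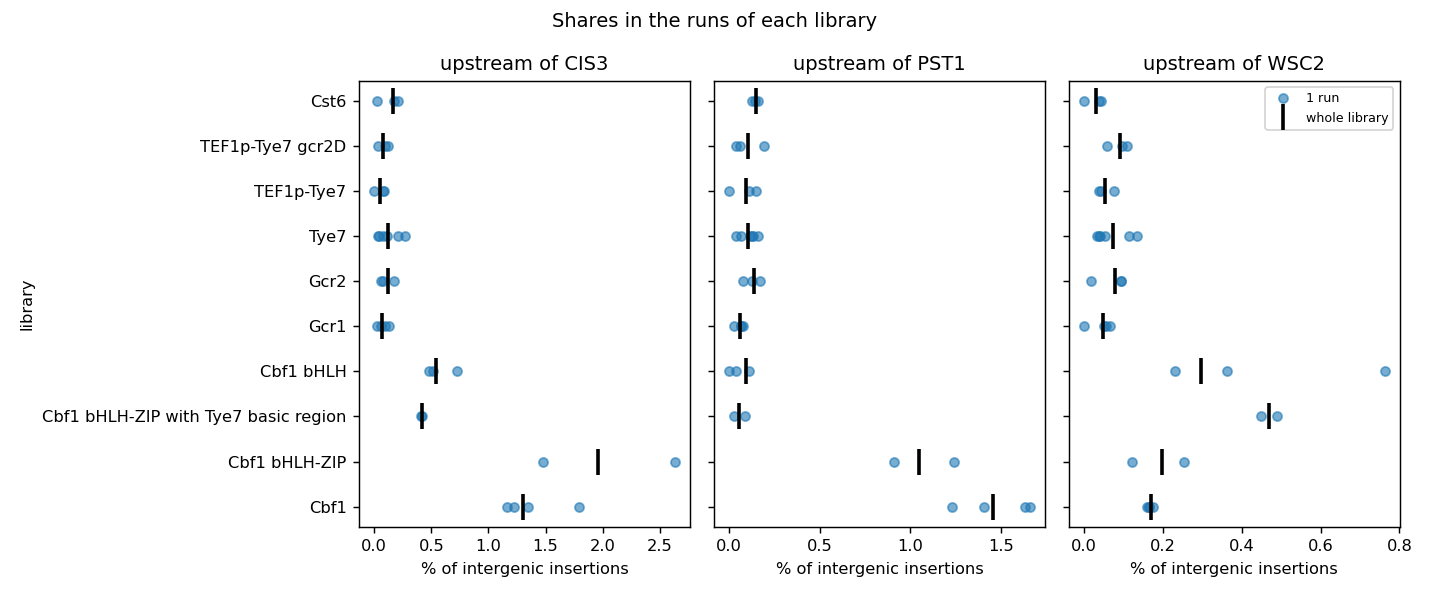
Share of intergenic insertions (%) upstream of CIS3, PST1 and WSC2 in each sorted block (run) of the 10 libraries with at least 2 runs (points) and in the whole library (vertical marks). At PST1 the runs of Cbf1 and Cbf1 bHLH-ZIP lie at 0.910% or more and those of every other library shown at 0.193% or less.

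The 9 pairs of libraries compare different factors, or forms of a factor. Tye7 and Cbf1, and Cst6 and Cbf1, also differ in deletions, TEF1p-Tye7 and Tye7 in both promoter and TYE7 deletion, and the Tye7 basic region and Cbf1 bHLH-ZIP in strain. A region was called higher or lower at a ratio of shares of at least 2 or at most 0.5, with at least 10 insertions in the pair. The pairs share libraries, so their values are not independent of each other, and several member values rest on the counts that chose the genes.

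Cbf1 bHLH lacks the zipper that Cbf1 bHLH-ZIP has. Of the 8 regions 3 were higher and 2 lower in Cbf1 bHLH, against 50.8% and 10.7% of all regions tested in that pair. The PST1 share was 0.0934% in Cbf1 bHLH and 1.05% in Cbf1 bHLH-ZIP, 11.2 times lower without the zipper (7.04 to 18.4). The log2 ratio was -4.80 without run 3 of Cbf1 bHLH, against -3.44 with it. The CIS3 share was 0.537% in Cbf1 bHLH and 1.96% in Cbf1 bHLH-ZIP, 3.64 times lower without the zipper (2.88 to 4.61). HSP150 and CWP1 had 35 and 49 insertions in Cbf1 bHLH and 0 in Cbf1 bHLH-ZIP, at least 3.65-fold and 5.10-fold higher against a floor of 3 insertions in that library. YGP1 had 36 in Cbf1 bHLH and 2 in Cbf1 bHLH-ZIP, a log2 ratio of 1.95 that was 0.60 with merged positions.

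With the NPAS2 bHLH, the pair with and without the Cbf1 zipper had 2 regions higher and 1 lower among the 3 members with enough insertions, against 67.7% and 11.3% of the 62 regions tested. CIS3 was at 9.2% with the zipper and at 0.911% without it, 10.1-fold higher (6.53 to 16.4). Its log2 ratio was 1.53 with merged positions, against 3.28 without merging. PST1 had 15 insertions with the zipper and 0 without it, with an interval of the ratio from 3.03 upward. PST1 was under the minimum of 10 insertions once shared entries were left out. YGP1 went the other way, with 1 insertion with the zipper and 10 without it. CIS3 and PST1 were thus higher with the zipper on both bHLH domains. Of all regions tested, 67.7% in the NPAS2 pair and 10.7% in the Cbf1 pair were also higher with the zipper. YGP1 was lower with the zipper on both domains, but in the NPAS2 pair it was not called with at least 5 reads. In the Cbf1 pair 50.8% of all regions tested were likewise lower with the zipper.

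The library with the Tye7 basic region in Cbf1 bHLH-ZIP had 1 region higher and 2 lower of the 4 with enough insertions, against 19.2% and 25.7% of all regions tested in that pair. PST1 had 4 insertions with the Tye7 basic region and 84 in Cbf1 bHLH-ZIP, 18.9 times lower (7.12 to 71.1). CIS3 was 4.72 times lower (3.18 to 7.22), but at a log2 ratio of -0.15 with merged positions. WSC2 was 2.36-fold higher (1.27 to 4.58), at 0.470% with the Tye7 basic region and 0.199% in Cbf1 bHLH-ZIP. Its log2 ratio was 0.81 without run 2 of Cbf1 bHLH-ZIP and 0.64 with merged positions, both short of the threshold.

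Cbf1 bHLH-ZIP set against full-length Cbf1 had 0 regions higher and 3 lower of 7, against 6.54% and 13.3% of all regions tested. CIS3 was 1.5-fold higher in Cbf1 bHLH-ZIP (1.23 to 1.81) and PST1 was at 0.719 times its share in Cbf1 (0.561 to 0.912), both short of the threshold. The 3 lower regions were HSP150 with 0 insertions in Cbf1 bHLH-ZIP and 10 in Cbf1, CWP1 with 0 in Cbf1 bHLH-ZIP and 11 in Cbf1, and YGP1 with 2 in Cbf1 bHLH-ZIP and 27 in Cbf1. The intervals of the HSP150 and CWP1 ratios, up to 1.51 and 1.35, included equality, so those differences were not detectable at this depth. Leaving out any run of either library gave 0 to 2 lower regions in place of 3.

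Tye7 set against Cbf1 had 2 member regions higher and 3 lower, against 43.1% and 22.9% of all regions tested. PST1 was 13.7 times lower in Tye7 (8.45 to 23.8), CIS3 11 times lower (6.93 to 18.5) and WSC2 2.26 times lower (1.18 to 4.69). HSP150 was 3.90-fold higher (1.79 to 9.18) and CWP1 3.70-fold higher (1.75 to 8.37), from 23 and 24 insertions in Tye7 and 10 and 11 in Cbf1. With positions within 5 bp merged in both libraries, CIS3 alone passed the threshold among the 5, at a log2 ratio of -1.27, and PST1 was at -0.90. WSC2 was at -0.96, -0.98 and -0.92 without runs 2, 3 and 4 of Tye7, just short of the threshold.

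Cst6 set against Cbf1 also had 2 higher and 3 lower, against 33.5% and 35.2%. PST1 was 9.82 times lower in Cst6, CIS3 7.82 times lower and WSC2 5.34 times lower. HSP150 was 3.45-fold higher (1.72 to 7.64) and the PIR1 and PIR3 region 2.71-fold higher (1.45 to 5.44). With merged positions PST1 was at a log2 ratio of -0.95 and CIS3 at -0.46, both short of the threshold, and WSC2 at -1.05. Of the 13 Cbf1 insertions in the PIR1 and PIR3 region 11 lay in run 1, and the log2 ratio was 2.75 without that run, 1.36 with it and 0.69 with merged positions.

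No member passed the thresholds in the pairs of Tye7 libraries. TEF1p-Tye7 set against Tye7 had 0 higher and 0 lower of 7, against 8.1% and 18.6%. TEF1p-Tye7 gcr2D set against TEF1p-Tye7 had 0 and 0 of 7, against 37% and 8.52%. These libraries held 3 to 25 insertions per member region, so intervals were wide: for CIS3 the ratio of TEF1p-Tye7 gcr2D to TEF1p-Tye7 was 1.5 (0.357 to 7.24). Gcr2 set against Gcr1 had 1 higher and 0 lower, against 14.4% and 9.09%, the higher one being PST1 at 35 insertions in Gcr2 and 10 in Gcr1, a ratio of 2.30 (1.11 to 5.2), whose log2 was 0.74 without run 1 of Gcr2, 0.86 without run 1 of Gcr1 and 0.66 with merged positions.

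PIR1 and PIR3 encode Pir proteins and start at both ends of 1 region, chr11:142824-144406. It held 49 insertions in Cst6, 6 in TEF1p-Tye7 gcr2D, 5 in TEF1p-Tye7, 15 in Tye7, 25 in Gcr2 and 15 in Gcr1. It held 0 in NPAS2 bHLH with Cbf1 ZIP, 6 in NPAS2 bHLH, 22 in Cbf1 bHLH, 6 with the Tye7 basic region, 4 in Cbf1 bHLH-ZIP and 13 in Cbf1, and the background held 75 for Cst6, Gcr2 and Gcr1 and 77 for the others. The one value above background was that of NPAS2 bHLH, at 2.14 times (0.761 to 4.87) from 6 insertions, and the one below was that of Cbf1, at 0.412 times (0.210 to 0.747), a log2 fold of -1.19 that was 0.083 with merged positions.

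HSP150 encodes a heat-induced Pir protein. Its region, chr10:115625-120445, is 4821 bp long in the files, is divergent with JJJ2, and in the RefSeq annotation of R64 also spans a transfer RNA gene, FMP33 and the Pir gene PIR5. It held 48 insertions in Cst6, 11 in TEF1p-Tye7 gcr2D, 7 in TEF1p-Tye7, 23 in Tye7, 16 in Gcr2, 14 in Gcr1, 1 in NPAS2 bHLH with Cbf1 ZIP and 2 in NPAS2 bHLH. It held 35 in Cbf1 bHLH, 2 with the Tye7 basic region, 0 in Cbf1 bHLH-ZIP and 10 in Cbf1, against 75 or 102 in the background. Below background were Gcr2 at 0.452 times (0.246 to 0.783), the Tye7 basic region at 0.180 (0.0215 to 0.666) and Cbf1 at 0.239 (0.111 to 0.458). Cbf1 bHLH-ZIP, at 0 insertions, was also below, with an interval up to 0.304 times. With merged positions the log2 fold was -0.26 in Gcr2, -0.98 with the Tye7 basic region and -0.56 in Cbf1, all short of the threshold. In Cst6, whose share matched the background within its interval, 45.8% of the region's insertions lay at 3203 to 3302 bp from the start of HSP150. That window was chosen on Cst6, so its share is high by choice.

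CWP1 encodes a GPI mannoprotein linked to wall glucan. Its region, chr11:259175-260776, has the 3′ end of CWP2 on its other side. It held 26 insertions in Cst6, 8 in TEF1p-Tye7 gcr2D, 13 in TEF1p-Tye7, 24 in Tye7, 41 in Gcr2, 28 in Gcr1, 0 in NPAS2 bHLH with Cbf1 ZIP and 4 in NPAS2 bHLH. It held 49 in Cbf1 bHLH, 5 with the Tye7 basic region, 0 in Cbf1 bHLH-ZIP and 11 in Cbf1, against 100 or 146 in the background. It was below background in Cst6 at 0.370 times (0.231 to 0.575), with the Tye7 basic region at 0.314 times (0.100 to 0.749) and in Cbf1 at 0.184 times (0.0899 to 0.339). It was also below in both libraries at 0. The intervals there reached up to 0.593 times in NPAS2 bHLH with Cbf1 ZIP and 0.211 times in Cbf1 bHLH-ZIP. With merged positions the log2 fold was -0.14 in Cst6 and -0.76 with the Tye7 basic region, both short of the threshold.

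CWP2, a major GPI mannoprotein of the wall, has no region by the rule because its systematic name, YKL096W-A, does not end in the strand letter. The region before it, chr11:256116-258897, reaches to UTP11 and in the R64 annotation spans 3 other listed genes. Taken in after the data were seen, it held 74 insertions in Cst6, 9 in TEF1p-Tye7 gcr2D, 7 in TEF1p-Tye7, 16 in Tye7, 59 in Gcr2 and 77 in Gcr1. It held 9 in NPAS2 bHLH with Cbf1 ZIP, 3 in NPAS2 bHLH, 45 in Cbf1 bHLH, 7 with the Tye7 basic region, 5 in Cbf1 bHLH-ZIP and 18 in Cbf1. It was above background in none of the 12 and below in Cbf1 bHLH-ZIP, at 0.359 times, and in Cbf1, at 0.382 times. The highest value was that of Gcr1, at 1.91 times (1.42 to 2.56).

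YGP1 has its region at chr14:334869-336547, with the 3′ end of the kinase gene CBK1 on the other side. It held 58 insertions in Cst6, 13 in TEF1p-Tye7 gcr2D, 7 in TEF1p-Tye7, 25 in Tye7, 31 in Gcr2, 24 in Gcr1, 1 in NPAS2 bHLH with Cbf1 ZIP and 10 in NPAS2 bHLH. It held 36 in Cbf1 bHLH, 6 with the Tye7 basic region, 2 in Cbf1 bHLH-ZIP and 27 in Cbf1, against 85 or 102 in the background. NPAS2 bHLH alone was above, at 2.69 times (1.25 to 5.15), where the region was second in rank by insertions. Cbf1 bHLH-ZIP alone was below, at 0.162 times (0.0193 to 0.600), a log2 fold of -2.06 that was -0.83 with merged positions.

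ECM33, a GPI protein needed for the ordered build of the wall, shares its region chr2:392287-393118 with SLM4. It held 15 insertions in Cst6, 4 in TEF1p-Tye7 gcr2D, 3 in TEF1p-Tye7, 6 in Tye7, 16 in Gcr2, 9 in Gcr1, 1 in NPAS2 bHLH with Cbf1 ZIP and 2 in NPAS2 bHLH. It held 12 in Cbf1 bHLH, 1 with the Tye7 basic region, 3 in Cbf1 bHLH-ZIP and 5 in Cbf1, against 35 or 41 in the background. With 77 insertions over all libraries it was the least used of the 8, and only Cbf1 was called, below background at 0.298 times (0.0918 to 0.753). Under 5 insertions were expected in TEF1p-Tye7 gcr2D, TEF1p-Tye7, the NPAS2 libraries, Cbf1 bHLH-ZIP and the library with the Tye7 basic region. No call below was possible in those. With merged positions the log2 fold in Cbf1 was -0.14, against -1.52 without merging. PST1, the paralog of ECM33, held 395 insertions in Cbf1.

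Wall genes outside the 10 were read from 5 lists, on the same rule for regions. Of the 18 tested regions of 29 further wall mannoprotein genes, 1 was above background in Cst6, namely that of FLO9, a flocculin of cell adhesion, at 6.79 times (4.96 to 9.48), in a region shared with GDH3. Of 22 tested regions of glucanase, glucan transferase and wall protease genes, 2 were above in Cst6: NCA3, in a region shared with ASF1, at 8.58 times (6.26 to 12) and UTH1 at 7.53 times (5.53 to 10.4), both members of the SUN family. NCA3 was also above in Cbf1 bHLH at 2.22 and Cbf1 bHLH-ZIP at 1.91, and UTH1 in NPAS2 bHLH at 2.02. Over regions upstream of 1 gene only, 0 mannoprotein regions and 1 region of the second list were above in Cst6. The third named region of that list was that of DSE1, a daughter cell protein, which shares it with the ubiquitin ligase gene RSP5. It took 3.65% with the Tye7 basic region, 28.5 times background (22.2 to 36.8), against 5.19 times in Cbf1 bHLH, 16.0 in Cbf1 bHLH-ZIP and 11.1 in Cbf1.

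GSC2 encodes an inducible subunit of glucan synthase. Its region, shared with NAG1, was above background at 26.0 times in NPAS2 bHLH with Cbf1 ZIP (16.7 to 40.6), 4.69 in NPAS2 bHLH, 3.78 in Cbf1 bHLH, 6.70 with the Tye7 basic region, 7.25 in Cbf1 bHLH-ZIP and 6.49 in Cbf1, the same 6 libraries as CIS3, and also at 2.34 in TEF1p-Tye7 gcr2D. KNH1, of glucan synthesis, was above in TEF1p-Tye7 gcr2D at 3.88 and in TEF1p-Tye7 at 2.26. SMI1, a regulator of glucan synthesis, was above in Cbf1 bHLH at 2.03, in a region shared with BNS1.

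Among 12 to 15 tested regions of integrity pathway genes, RLM1, the transcription factor of the pathway, was above in TEF1p-Tye7 gcr2D at 3.60. MTL1, a sensor, was above in Cst6 at 3.46, and SWI4, a cell-cycle transcription factor, in Cbf1 at 3.16. These regions are shared with YDC1, VMA7 and LSM4. Of the mannosylation and GPI anchor genes, the mannosyltransferase gene KTR1 was above at 3.87 in Cbf1 bHLH, 7.88 in Cbf1 bHLH-ZIP and 15.4 in Cbf1, in a region shared with NUP1. MNN4, which regulates mannosylphosphate transfer, was above at 2.52 in NPAS2 bHLH with Cbf1 ZIP, 4.18 in NPAS2 bHLH, 2.36 in Cbf1 bHLH, 6.37 in the library with the Tye7 basic region, 2.51 in Cbf1 bHLH-ZIP and 3.98 in Cbf1, again the 6 libraries of CIS3. MNT2, a mannosyltransferase gene, was above at 56.1 in TEF1p-Tye7 gcr2D, 71.7 in TEF1p-Tye7, 8.43 in Gcr2, 59.4 in Gcr1 and 1.97 with the Tye7 basic region, where 1 insertion added to each count carried it over the threshold, in a region shared with the alcohol dehydrogenase gene ADH4.

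Over the 12 libraries, the mannoprotein list had 0 to 2 regions above background and 0 to 13 below, and the glucanase and protease list 0 to 4 and 0 to 13. The glucan and chitin list had 0 to 3 above and 0 to 14 below, the integrity pathway list 0 to 3 and 0 to 9, and the mannosylation list 0 to 6 and 0 to 8. The share over all tested regions ran from 2.69% to 8.51% above and from 0% to 69.6% below. In Cst6, where it was 69.6%, 9 of 18 mannoprotein, 13 of 22 glucanase and protease, 14 of 20 glucan and chitin, 8 of 12 integrity pathway and 8 of 12 mannosylation regions were below. In Cbf1, where it was 49.2%, 13 of 19, 13 of 22, 9 of 19, 9 of 14 and 4 of 14 were below. In Cbf1 the median log2 fold was -1.30 over the 23 mannoprotein regions and -1.39 over the 26 glucanase and protease regions. It was -1.19 over the 24 glucan and chitin regions, -1.12 over the 18 integrity pathway regions and -0.71 over the 28 mannosylation regions. These medians include list regions under the minimum for testing, whereas the median over all 2185 tested regions, -1.30, does not. In Cst6 the list medians were -1.07, -1.49, -1.71, -1.21 and -1.49, against -1.68 over 1883 tested regions. The 8 member regions had a median of -0.89 in Cbf1 and -0.11 in Cst6.

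**Figure D5:**
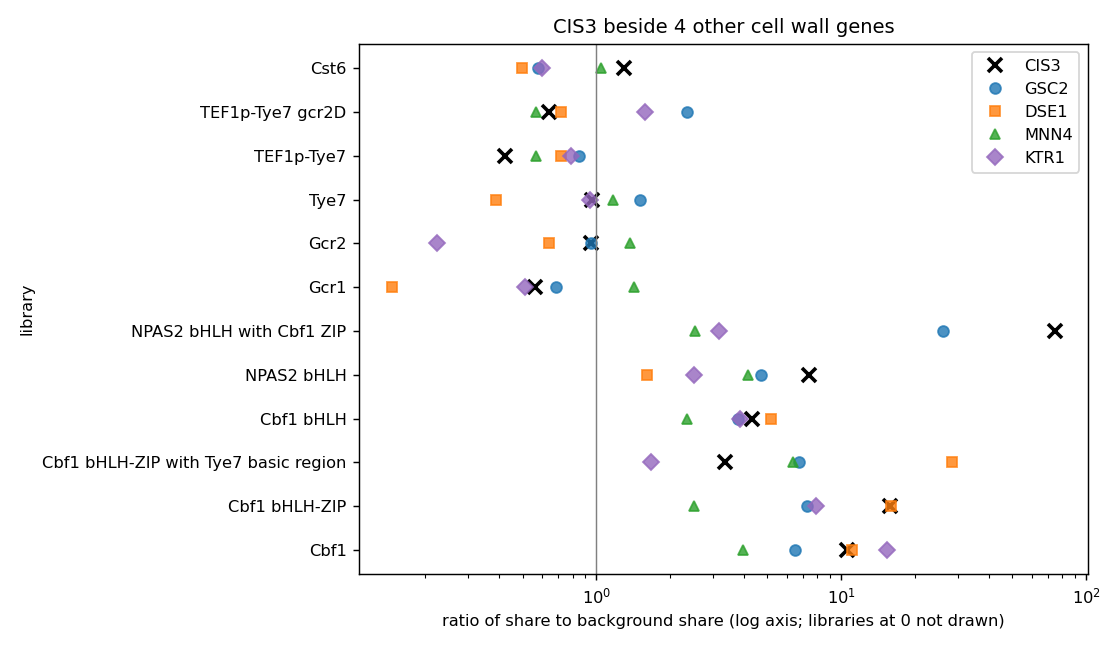
Ratio of share to background share (log axis) by library for CIS3 and for 4 wall genes outside the 10, GSC2, DSE1, MNN4 and KTR1; libraries at 0 are not drawn. GSC2 is at 26.0 in NPAS2 bHLH with Cbf1 ZIP beside 74.3 for CIS3, and DSE1 is highest with the Tye7 basic region, at 28.5. The 4 are a selection from the genes named in the text, all above background in Cbf1. Genes highest in other libraries, such as FLO9, NCA3, UTH1 and MTL1 in Cst6 or MNT2 in TEF1p-Tye7, are not drawn.

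Likeness across the 12 libraries was described by Pearson's r of log2 folds over background, over the 354 other regions with at least 100 insertions in all. The libraries differ in depth and share background sets, so r carries no test. Nearest to CIS3 were the regions between SHU1 and MRP4 (r = 0.91) and between NAG1 and GSC2 (r = 0.91). Nearest to PST1 were those between NDI1 and NGL3 (r = 0.87) and between TYE7 and REV1 (r = 0.82). Nearest to WSC2 were those between TYW1 and HRR25 (r = 0.93) and between BET3 and MET1 (r = 0.93).

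The regions with fewer insertions had r of the same size. YGP1 was nearest to the region between YPR148C and NCE102 (r = 0.93), which was also second for HSP150 (r = 0.86) after that between ILV5 and RSC2 (r = 0.89). CWP1 was nearest to the region between AGE1 and SNA2 (r = 0.92) and to that between CRH1 and HIP1 (r = 0.90), CRH1 being a transglycosylase of the wall. PIR1 with PIR3 was nearest to the region between DON1 and BSC2 (r = 0.84) and to that between SPS4 and SFG1 (r = 0.84).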

How the data were processed

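Per the labels' protocols, insertions were read by inverse PCR from 3 separate digests, and the submitters' processing notes name Novoalign as the aligner. No source used here gives the genome build. The deposited files give counts per library, as a list of insertions with reads and as a table of 4532 intergenic regions with insertion counts of the library and of a background set. Recounting the lists gave the tables' counts in all 12 libraries.

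Shares were formed over all intergenic insertions. Calls used folds with 1 insertion added to each count. Printed folds are ratios without it, with exact 95% intervals conditional on the sum; share intervals are Clopper-Pearson. A region was tested with at least 10 insertions in library and background together. R64 served for gene names and neighbours only. With 1 library a group and members picked from these counts, no test was run. The members and gene lists were chosen with earlier results of these data known. From each list up to 3 regions were named, by highest fold among those with at least 20 insertions. The code was tested on simulated data. Python 3.11.15, pandas 2.3.3, numpy 2.4.6, scipy 1.17.1 and matplotlib 3.10.9 were used. Alternatives changed the added count, fold, minimum, background set, region edges, reads, merging of positions, denominators and shared entries, and left out runs. Sequence motifs were not analysed here.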

Additional observations from a re-analysis of the deposited data

Results flagged for a closer look

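The region between CWP1 and YJU2, on the other side of CWP1 and outside the comparisons of member regions, was above background in the Cbf1 bHLH library at 2.21 times, from 6 insertions in that library and 7 in the background. No other of the neighbouring regions looked at was above background in any library. This value rests on few insertions and was not tested.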

How the results depend on the processing

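Each of the counts above or below background and between libraries was recomputed under the alternatives, of which shared entries left out and the added UTP11 and CWP2 region were chosen after seeing the data. Of the recomputed counts 490 stayed within 1.5 times the value given in the report and 110 did not. Of the single log2 values, 736 moved by less than their counting interval, 44 moved by more and 2 changed sign. The 736 include values that their setting could not move. These were 56 with a fold of 3, 31 with a minimum of 10, 25 with a minimum of 20 and 31 with the added region. With merged positions 32 log2 values moved by less than their interval, 22 moved by more and 2 changed sign. No paired analysis was possible because every group held 1 library and no result came from a test.

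Regions above background numbered 0 in Cst6 (1 in the report) with widened region edges, at least 5 reads, a fold of 3, merged positions or shared entries left out. They numbered 0 in TEF1p-Tye7 gcr2D (1 in the report) with 0.5 insertions added, all insertions as denominator, a fold of 3, a minimum of 10, the other background set or shared entries left out. Gcr2 had 1 (0 in the report) with all insertions, at least 5 reads, the other background set, the 10 fullest regions left out, merged positions or shared entries left out. Tye7 had 1 (0 in the report) with at least 5 reads, the 10 fullest regions left out, merged positions or shared entries left out, and TEF1p-Tye7 had 1 (0 in the report) with the 10 fullest regions left out or merged positions. NPAS2 bHLH had 1 (4 in the report) with at least 5 reads and 2 with a fold of 3 or a minimum of 10. NPAS2 bHLH with Cbf1 ZIP had 1 (2 in the report) with at least 5 reads, and Cbf1 bHLH had 0 (2 in the report) with merged positions.

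Regions below background numbered 1 in Cst6 (2 in the report) with a fold of 3 or the 10 fullest left out and 0 with merged positions. TEF1p-Tye7 gcr2D had 1 (0 in the report) with shared entries left out, TEF1p-Tye7 1 (0 in the report) with 0.5 added or widened edges, and Tye7 1 (0 in the report) with at least 5 reads. Gcr2 had 0 (1 in the report) with all insertions, a fold of 3, the 10 fullest left out or merged positions, and Gcr1 0 (1 in the report) with a fold of 3, the other background set, the 10 fullest left out or merged positions. NPAS2 bHLH with Cbf1 ZIP had 0 (1 in the report) with at least 5 reads, a minimum of 10, the 10 fullest left out or merged positions. The library with the Tye7 basic region had 1 (2 in the report) with a fold of 3 or the 10 fullest left out and 0 with merged positions, and Cbf1 2 (4 in the report) with a fold of 3 and 1 with merged positions.

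Between libraries, merged positions gave 0 higher and 1 lower for Tye7 against Cbf1 (2 and 3 in the report), 1 and 1 for Cst6 against Cbf1 (2 and 3), 1 higher for Cbf1 bHLH-ZIP against Cbf1 (0), 4 lower for Cbf1 bHLH against Cbf1 bHLH-ZIP (2), 0 higher and 1 lower for the Tye7 basic region against Cbf1 bHLH-ZIP (1 and 2), 1 lower for TEF1p-Tye7 gcr2D against TEF1p-Tye7 (0) and 0 higher for Gcr2 against Gcr1 (1). At least 5 reads gave 1 higher for Cst6 against Cbf1 (2), 1 lower for Cbf1 bHLH-ZIP against Cbf1 (3), 1 higher and 0 lower for NPAS2 bHLH with Cbf1 ZIP against NPAS2 bHLH (2 and 1), 1 higher for TEF1p-Tye7 against Tye7 (0) and 2 higher for Gcr2 against Gcr1 (1). A minimum of 20 gave 1 lower for Cbf1 bHLH-ZIP against Cbf1 (3) and 1 higher and 0 lower for the NPAS2 pair (2 and 1). A fold of 3 gave 1 higher for Cst6 against Cbf1 (2), 0 higher for the Tye7 basic region against Cbf1 bHLH-ZIP (1) and 0 higher for Gcr2 against Gcr1 (1). Leaving out the 10 fullest regions gave 1 lower for TEF1p-Tye7 gcr2D against TEF1p-Tye7 (0) and 0 higher for Gcr2 against Gcr1 (1), 0.5 added gave 1 lower for TEF1p-Tye7 against Tye7 (0), and shared entries left out gave 1 higher for the NPAS2 pair (2).

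Leaving out each run in turn gave 0 to 1 above in Cst6, TEF1p-Tye7 gcr2D, TEF1p-Tye7, Tye7 and Gcr2, and 2 to 3 in Cbf1 bHLH-ZIP. Below, it gave 0 to 1 in TEF1p-Tye7 gcr2D, TEF1p-Tye7 and Tye7, 1 to 2 in Gcr2, 0 to 2 in Gcr1 and 3 to 4 in Cbf1. Between libraries it gave 2 to 4 higher and 2 to 3 lower for Tye7 against Cbf1, 2 to 3 higher for Cst6 against Cbf1, 0 to 1 higher and 0 to 2 lower for Cbf1 bHLH-ZIP against Cbf1 (3 lower in the report), and 0 to 1 higher for the Tye7 basic region against Cbf1 bHLH-ZIP. It gave 0 to 2 lower for TEF1p-Tye7 against Tye7, 0 to 1 higher and 0 to 1 lower for TEF1p-Tye7 gcr2D against TEF1p-Tye7, and 0 to 1 higher for Gcr2 against Gcr1.

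Merging positions within 5 bp turned CIS3 in Cbf1 bHLH to a log2 fold of -0.10 (2.11 in the report) and PIR1 with PIR3 in Cbf1 to 0.083 (-1.19 in the report). It merges insertions of the library but not of the background set, so it lowers dense regions by construction. Leaving out the 10 fullest regions shifted all log2 folds of a library by 0.04 (NPAS2 bHLH) to 1.13 (NPAS2 bHLH with Cbf1 ZIP). Depth is lowest in the NPAS2 libraries, where 3 insertions make 0.105% and 0.124% of the intergenic total.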
